A study of Mus musculus with 186 samples.

Results

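Fragments of the Escherichia coli genome with many CpGs were compared with mouse promoters in a single pool of barcoded inserts, to ask whether a high density of CpGs is enough for transcription in mouse embryonic stem cells (ESCs). The pool had 83 inserts with an entry. The 73 E. coli fragments were those whose name is a position in the bacterial genome, the 9 mouse promoters were those named by a gene, and the promoter of cytomegalovirus (CMV) was kept apart as a reference. All were measured in wild-type TC-1 ESCs, a mouse line with an RMCE site (an acceptor for cassette exchange) in the beta-globin locus, which is silent outside the erythroid lineage. TrAC-seq, a pooled reporter assay, reads a short barcode (BC) carried by each insert in RNA and in genomic DNA, and 3 replicates of paired RNA and DNA were available. The fragments were placed in front of a minimal promoter, which is not stated for the mouse promoters, and the cells with fragments were mixed with cells of a separate library of housekeeping promoters for the assay. Class of insert, cell batch and vector therefore cannot be told apart in any comparison below. Whether the replicates were separate cultures is not stated, so their spread may be technical.

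Most vertebrate CpGs are methylated and have been lost over evolution, and the CpG islands that cover the majority of mouse promoters are the exception, with many unmethylated CpGs. Normalized CpG density is the observed to expected ratio (OE), the number of CpGs divided by the product of the numbers of Cs and Gs, times the length. Bacterial DNA keeps its CpGs but was never selected for the binding sites of mammalian transcription factors. Housekeeping promoters, in contrast, combine CpGs with sites for factors such as SP1, GABPA, NRF1 and NFY that recruit the transcription machinery.

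Start sites of 5 of the mouse genes are shown first, because they include promoters of low and of high CpG density, both active and inactive in the pool. Each is a RefSeq window of 300 bases on GRCm38.p6, 250 before and 50 after the start of the gene, written 5′ to 3′ on the strand of the gene with every CpG in capitals. The window was not the insert itself, whose sequence was not used here.
Snx3 window (chr10:42501804-42502103, plus strand): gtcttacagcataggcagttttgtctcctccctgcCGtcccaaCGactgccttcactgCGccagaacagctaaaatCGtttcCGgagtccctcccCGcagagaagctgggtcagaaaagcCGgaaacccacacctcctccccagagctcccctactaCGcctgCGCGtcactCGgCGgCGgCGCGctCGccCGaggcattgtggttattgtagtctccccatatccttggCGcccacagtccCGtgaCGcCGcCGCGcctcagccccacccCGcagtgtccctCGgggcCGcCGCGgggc
Psmd4 window (chr3:95042565-95042864, minus strand): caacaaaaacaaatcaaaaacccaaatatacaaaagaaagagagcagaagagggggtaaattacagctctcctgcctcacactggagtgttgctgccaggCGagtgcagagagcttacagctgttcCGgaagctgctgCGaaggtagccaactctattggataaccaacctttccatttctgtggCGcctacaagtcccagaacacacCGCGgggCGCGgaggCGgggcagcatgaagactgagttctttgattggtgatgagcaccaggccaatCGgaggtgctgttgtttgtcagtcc
Pgk1 window (chrX:106186850-106187149, plus strand): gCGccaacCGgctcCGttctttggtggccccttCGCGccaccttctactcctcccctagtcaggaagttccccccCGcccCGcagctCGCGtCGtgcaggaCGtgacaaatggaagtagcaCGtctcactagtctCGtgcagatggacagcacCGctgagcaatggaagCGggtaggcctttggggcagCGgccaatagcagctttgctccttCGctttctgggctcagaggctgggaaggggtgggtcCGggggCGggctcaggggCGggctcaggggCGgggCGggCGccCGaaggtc
Kdelr1 window (chr7:45872590-45872889, plus strand): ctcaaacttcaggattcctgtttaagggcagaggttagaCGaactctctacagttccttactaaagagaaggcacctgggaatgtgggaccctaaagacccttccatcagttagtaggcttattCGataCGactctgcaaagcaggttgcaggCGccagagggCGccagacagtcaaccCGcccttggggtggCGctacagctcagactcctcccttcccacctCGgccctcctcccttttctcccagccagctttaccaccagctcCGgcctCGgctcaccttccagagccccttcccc
Tpp1 window (chr7:105752186-105752485, minus strand): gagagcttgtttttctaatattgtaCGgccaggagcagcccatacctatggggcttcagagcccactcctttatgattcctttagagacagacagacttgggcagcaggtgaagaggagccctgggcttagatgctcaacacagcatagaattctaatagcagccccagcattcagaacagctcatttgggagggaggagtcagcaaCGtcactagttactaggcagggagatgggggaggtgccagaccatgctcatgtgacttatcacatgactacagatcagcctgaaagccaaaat
The Snx3 window held 28 CpGs and the Pgk1 window 24, against 10 in Psmd4, 10 in Kdelr1 and 2 in Tpp1. The 2 windows with 10 CpGs belong to an active and to an inactive promoter of the pool, as the values below show. A window was also found for Gpi1 with 21 CpGs, so that 6 of the 9 promoters had one, and Actb, Pigm and Polr2g had none.

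Letters of known binding sites were searched on both strands of the windows, and none of the strings contains another. The SP1 string GGGCGG, found in 35.7% of all 32851 RefSeq windows, occurred 5 times in Pgk1 with overlaps counted, 2 times in Gpi1 and once in Kdelr1. The GABPA string CCGGAAG, found in 8.86% of all windows, occurred only in Psmd4 among these 6. The NFY string CCAAT, found in 37.4% of all windows, occurred 3 times in Psmd4 and once in Pgk1. Strings for NRF1 (GCGCATGC, in 2.71% of windows), MYC (CACGTG, in 7.15%), the TATA box (TATAAA, in 13.6%), CREB (TGACGTCA, in 1.79%) and YY1 (AANATGGCG, in 2.38%) were not in any of the 6 windows. Snx3 and Tpp1 thus held none of the searched strings, although Snx3 was active in the pool and Tpp1 was not. A match of letters is a description and not a measured site.

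Gene positions are given on mm9, the build named for the study. Actb, which encodes beta-actin of the cytoskeleton, is on chr5 (143664794 to 143668433, minus strand), and Psmd4, a ubiquitin receptor of the proteasome, is on chr3 (94836616 to 94846536, minus strand). Pigm, a mannosyltransferase of GPI anchor synthesis, is on chr1 (174306662 to 174314230, plus strand), and Snx3, a sorting nexin of endosomes, is on chr10 (42221836 to 42255187, plus strand). Polr2g, a subunit of RNA polymerase II, is on chr19 (8867619 to 8873047, minus strand). Kdelr1, which returns proteins to the endoplasmic reticulum, is on chr7 (53128142 to 53139101, plus strand). Tpp1, a lysosomal peptidase, is on chr7 (112893334 to 112900738, minus strand), and so is Gpi1, a glycolytic isomerase (34987141 to 35015308, minus strand). PGK is a label and not a gene symbol. Its deposited base composition defined an insert of 618 bases with 43 CpGs, and 6 overlapping windows of that composition were found at Pgk1, a kinase of glycolysis. They begin 434 to 442 bases before the start of the gene and end 175 to 183 bases after it, between 103381997 and 103382622 on chrX. No window with the composition of the insert was found within 3000 bases of the start of the other 8 genes, so positions of those inserts are not given.

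The E. coli fragments had far more CpGs for their base composition than the promoters. OE ranged from 0.819 to 1.46 in the 73 fragments, with a median of 1.16, and from 0.125 for Tpp1 to 0.920 for Snx3 in the 9 promoters. All 73 fragments lay above 0.6, the usual limit for a CpG island, as did 5 of the 9 promoters. Among mouse RefSeq windows of 300 bases, which are shorter than the fragments, 35.8% reached 0.6, 19.3% reached the lowest OE of a fragment and 0.849% reached the median of the fragments. These shares depend on the window taken and are not the share of promoters with a CpG island. The plot of OE distributions shows this shift. Mean G+C content was 52.7% ± 3.89 (SD, n = 73) in fragments and 53.7% ± 5.54 (SD, n = 9) in promoters. The fragments were 547 to 595 bases long and held 16 to 72 CpGs.

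**Figure D1:**
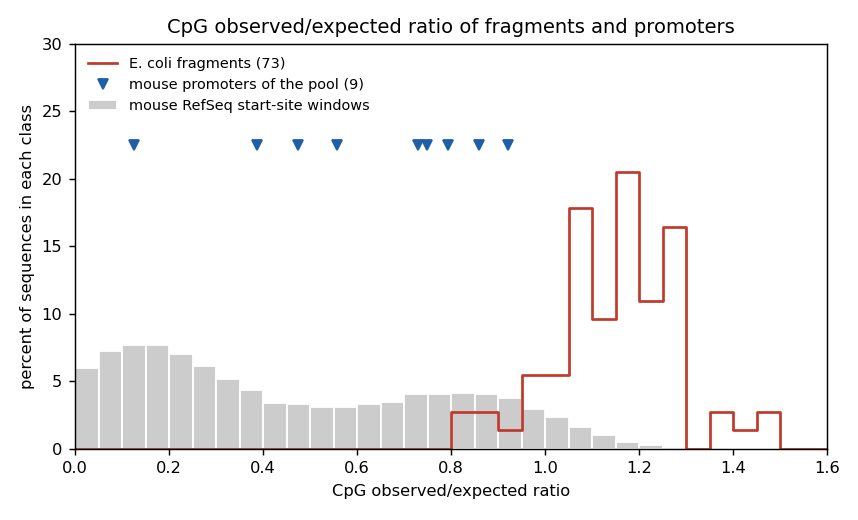
CpG observed/expected ratio (x axis) against the percent of sequences in bins of 0.05 (y axis) for 32851 mouse RefSeq windows (grey bars) and 73 E. coli fragments (red line), with each of the 9 mouse promoters of the pool as a blue triangle placed at a height without meaning. The fragments start at 0.819, where the upper part of the mouse distribution lies, and reach 1.46.

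Not all fragments were measured. An activity was deposited only where at least 3 BCs were counted in a replicate. By that limit 16 of the 73 fragments had a value, 8 of them in 1 replicate only, 5 in 2 and 3 in all 3 replicates. The other 57 fragments had at most 2 BCs in any replicate, and for 41 of them the maximum was 1. Of the promoters, 8 had values in at least 2 replicates, and Gpi1, with 1 BC in replicate 1 and 2 in replicate 2, had no value. The limit used in the study, 3 or more BCs in 2 or more replicates, was passed by 8 fragments, 8 promoters and CMV. The 16 fragments with a value are named E1 to E16 here in order of position.

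Many fragments were sampled in both orientations. The 73 fragments came from 56 loci, of which 17 were present on both strands with starts 8 to 9 bases apart. The 8 fragments that passed the limit came from 7 loci, since E8 and E9 are the same stretch in opposite orientation, and the 16 with a value came from 14 loci. By the positions in their names, on an assembly that the sources used here do not name, the 8 that passed are E2 (2372585 to 2373156, minus strand), E4 (2478170 to 2478763, plus), E6 (2542971 to 2543547, minus), E8 (3063741 to 3064323, minus), E9 (3063750 to 3064331, plus), E11 (3676501 to 3677095, plus), E15 (4412060 to 4412623, plus) and E16 (4646851 to 4647430, minus). The genes at these positions were not analysed here.

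For each BC the ratio of RNA to DNA reads plus a pseudocount of 0.05 was taken, and the geometric mean of a construct's BCs is its activity, given here on the log2 scale. No value can fall below -4.32, the log2 of the pseudocount, and a mean within 0.5 of it is called inactive. E2 stood at -4.32 in both replicates with a value, with 3 and 5 BCs. E4 also stood at -4.32 in both of its replicates, with 3 BCs in each. No RNA read was counted for any BC of these 2 fragments.

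E6 and E9 were measured in all 3 replicates and stayed at the lowest value to 2 decimals, E6 with 4 BCs in each replicate and E9 with 16, 17 and 5. Their linear activities were 0.05, 0.0500253 and 0.0500451 for E6 and 0.05, 0.050005 and 0.0500678 for E9. RNA reads were therefore present in replicates 2 and 3, but at a level far under the pseudocount. E16 likewise had a trace of RNA in replicate 1, with a linear activity of 0.050059, and none in replicate 2. None of the 3 fragments rose above the lowest value by 0.01 on the log2 scale.

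The other 3 fragments that passed each had a single replicate above the lowest value. E8 measured -4.32, -4.09 and -4.32 with 9, 13 and 3 BCs. E11 measured -3.67 in replicate 1 with 4 BCs and -4.32 in replicate 2 with 3 BCs. E15 measured -4.32 in replicate 1 with 4 BCs and -3.19 in replicate 2 with 3 BCs. In none of the 3 was the higher value seen again in a second replicate. The higher values of E8, E11 and E15 lay 1.57, 1.76 and 0.66 log2 units below CMV of the same replicate, in that order. E8 and E9, the same DNA in both orientations, differed by 0.23 in replicate 2 and by less than 0.01 in the others.

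A geometric mean does not show how RNA is spread over BCs. In linear units above the pseudocount, the value of E15 in replicate 2 is an RNA over DNA enrichment of 0.0599 if its 3 BCs were alike and of 0.481 in 1 BC if the others had none. For E11 in replicate 1 the same bounds are 0.0287 and 0.256, and for E8 in replicate 2 they are 0.00855 and 0.339. In the same units the Actb promoter had 1.24 to 3.42 over the replicates if its 13 to 24 BCs were alike. The like measure for the 3 fragments is the lower bound of each. The reads of single BCs were not used here, so how many BCs carried the RNA of the 3 fragments was not tested.

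**Figure D2:**
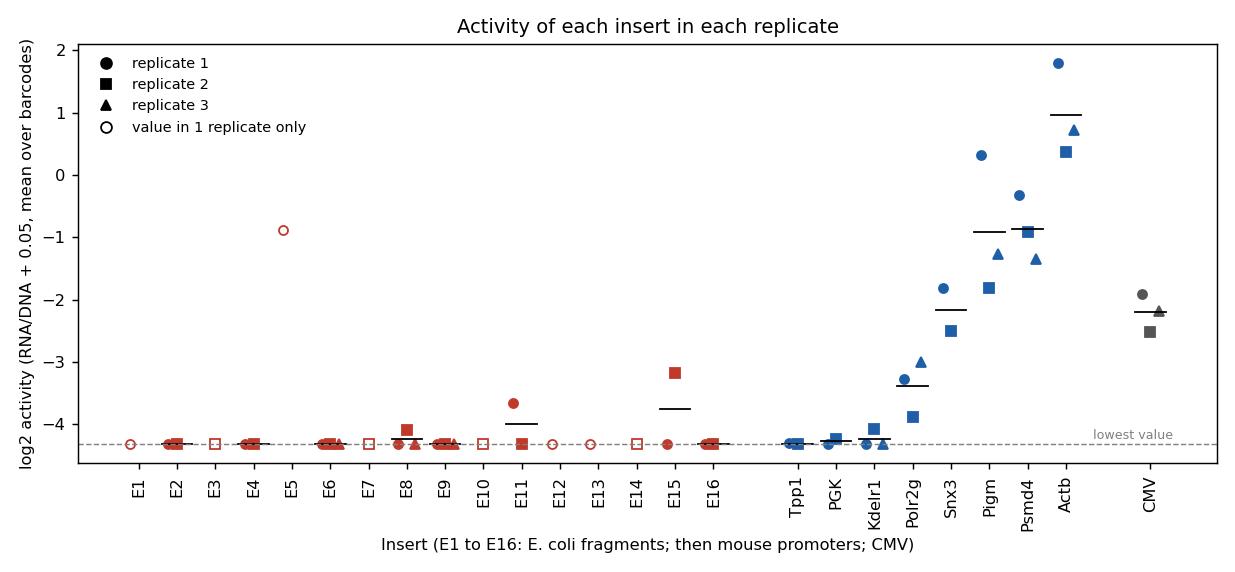
Log2 activity (y axis) of each insert with a value (x axis), E. coli fragments E1 to E16 in red, mouse promoters in blue and CMV in grey, with a symbol for each replicate, open symbols for inserts with a value in 1 replicate only, and a black bar for the mean of inserts with more than 1 value. The dashed line is the lowest value, -4.32, on which most fragments and 3 promoters sit, while E5 stands at -0.88.

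The promoters ranged over the whole scale. Actb was highest in every replicate, with 1.80, 0.36 and 0.73 from 15, 24 and 13 BCs and a mean of 0.96 ± 0.75 (SD, n = 3). Psmd4 measured -0.32, -0.92 and -1.35 from 19, 20 and 11 BCs, with a mean of -0.86 ± 0.52 (SD, n = 3). Pigm measured 0.32, -1.81 and -1.27 from 14, 25 and 11 BCs, with a mean of -0.92 ± 1.11 (SD, n = 3). The values of Psmd4 and Pigm overlapped. Those of Actb overlapped with neither, although the highest value of Pigm came within 0.1 of the lowest of Actb.

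Snx3 and Polr2g were lower. Snx3 measured -1.82 and -2.51 from 8 and 10 BCs, near CMV with -1.91, -2.52 and -2.18 from 130, 167 and 47 BCs. The means of -2.16 ± 0.49 (SD, n = 2) for Snx3 and -2.20 ± 0.31 (SD, n = 3) for CMV lay within their spread. Polr2g, with the most BCs of the promoters (55, 90 and 19), measured -3.28, -3.89 and -3.01, and its values stayed above the lowest value by 0.93 on average. The means of all 8 passed fragments were lower than those of these 5 promoters, although the single higher values of E11 and E15 exceeded the lowest value of Polr2g.

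The remaining 3 promoters were inactive. Kdelr1 measured -4.32, -4.09 and -4.32 from 11, 18 and 3 BCs, and no RNA read was counted in replicates 1 and 3. PGK measured -4.32 and -4.24 from 3 and 4 BCs, and Tpp1 measured -4.31 and -4.32 from 3 and 9 BCs. Their means of -4.24, -4.28 and -4.31 fell within the range of the fragments, which ran from -4.32 to -3.75. Tpp1 and Kdelr1 have the lowest OE of the pool (0.125 and 0.387), whereas PGK has an OE of 0.728.

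As a class, promoters exceeded the E. coli fragments. The mean log2 activity was -2.40 ± 1.98 (SD, n = 8) for promoters and -4.20 ± 0.21 (SD, n = 8) for fragments. The difference of 1.80, or 3.48-fold in the activity with its pseudocount, had p = 0.0138 in an exact two-sided permutation test over constructs. As most fragments sit at the lowest value, this fold understates any difference in RNA over DNA. Of the 8 promoters, 5 lay above every fragment that passed and 3 among them. Inactive were 7 of 8 fragments and 3 of 8 promoters, beside 58.8% of all 17 constructs that passed, with CMV included. The exception among the fragments was E15, whose mean of -3.75 ± 0.80 (SD, n = 2) rests on 1 of its 2 replicates. The SD of the promoters was about as large as the difference between classes.

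The difference was seen within each replicate. Promoters exceeded fragments by 2.21 in replicate 1 (8 constructs in each class), by 1.48 in replicate 2 (8 in each class) and by 2.48 in replicate 3 (5 promoters and 3 fragments). The mean was 2.05 ± 0.52 (SD, n = 3), higher for promoters in 3 of 3 replicates, with p = 0.25 in an exact two-sided sign-flip test, the smallest p that 3 replicates allow. For the 5 promoters and 3 fragments measured in all 3 replicates the differences were 3.16, 2.18 and 2.48.

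The difference was also seen for the promoters with the higher OE, although these were not matched to the fragments in OE. Only Actb and Snx3 reached the lowest OE of a passed fragment, 0.849 for E4. All other passed fragments had an OE of 1.02 or more, above every promoter. These 2 promoters averaged -0.60, which is 3.60 above the 8 fragments (exact permutation p = 0.0444, the smallest that 2 against 8 allow). The 4 promoters with OE above 0.6, which include the inactive PGK, averaged -1.60 and exceeded the fragments by 2.60 (exact permutation p = 0.0162). E4 itself, with a G+C content of 35.7% and 16 CpGs, was the fragment most like a promoter in OE and stood at the lowest value.

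The classes differed in other ways. Among constructs that passed, OE was 0.60 ± 0.267 (SD, n = 8) in promoters and 1.13 ± 0.143 (SD, n = 8) in fragments (exact permutation p adjusted over 4 properties = 0.00186). Promoters also had more BCs per replicate with a value or an entry, 16.5 ± 16.4 against 4.94 ± 3.65 (adjusted p = 0.0354 in the exact permutation test). CpGs per 100 bases were 4.61 ± 2.75 in promoters and 7.19 ± 2.33 in fragments (adjusted p = 0.0852), and G+C content was 53.7% ± 5.92 and 49.7% ± 6.45 (adjusted p = 0.221), also by exact permutation. With a minimum of 5 BCs, the difference in activity was 2.50 over 6 promoters and 2 fragments (exact permutation p = 0.0714), and with a minimum of 10 it was 2.64 over 5 promoters and 1 fragment (exact permutation p = 0.333), in both cases the smallest p that these numbers allow.

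High OE did not go with high activity over the fragments or over the whole pool. Spearman's rho of mean log2 activity with OE was 0.13 over the 8 passed fragments (Pearson's r 0.072) and 0.57 over the 8 promoters (Pearson's r 0.56). Over both classes together it was -0.35 (Pearson's r -0.20, n = 16), as the fragments have both the highest OE and the lowest activities. Within promoters rho was 0.33 for CpGs per 100 bases and 0.29 for G+C content. These are descriptions over few constructs of 1 pool that share their libraries, and most fragments are tied at the lowest value. Among the 5 promoters that were not inactive, rho with OE was 0, so the order within promoters rests on the 3 inactive ones.

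**Figure D3:**
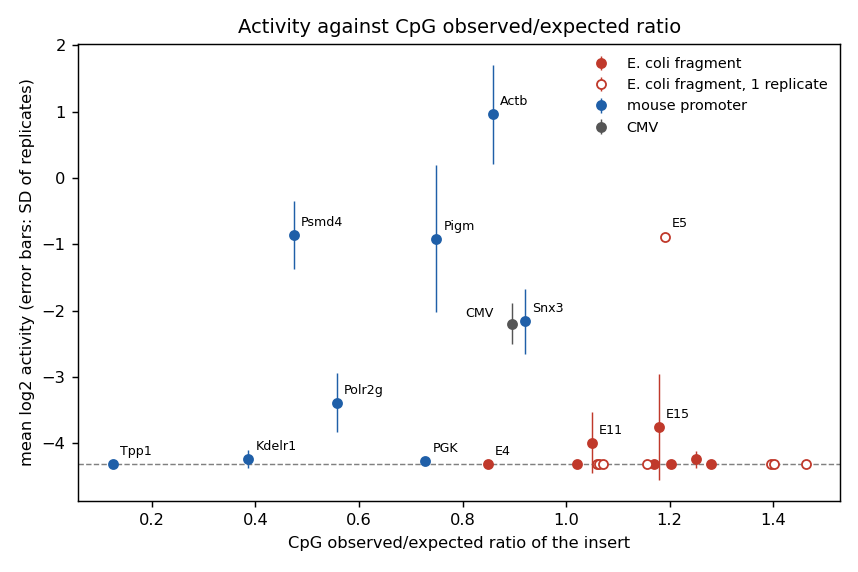
Mean log2 activity (y axis, error bars are the SD of replicates) against the CpG observed/expected ratio (x axis) for fragments (red, open with 1 replicate), promoters (blue) and CMV (grey), with the lowest value of -4.32 dashed. Promoters spread from -4.31 to 0.96 below an OE of 0.920, and the fragments above 0.849 lie on or near the dashed line except for E5.

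Of the 8 fragments with a value in 1 replicate, 7 were at the lowest value and 1 was not. E1, E3, E7, E10, E12, E13 and E14 all stood at -4.32 with no RNA read, from 3 BCs each and 5 in E14. E12 and E13 are the same locus in both orientations, with an OE of 1.40 each, and E7 had the highest OE of all fragments, 1.46. E5 (2490168 to 2490743, plus strand), with an OE of 1.19 and 58 CpGs, measured -0.88 in replicate 1 from 3 BCs. It lay 1.02 above CMV in that replicate, in which Actb, Pigm and Psmd4 were higher than E5 and the other 5 promoters were lower. An equal share among its 3 BCs would be an enrichment of 0.492 in each, and if all RNA came from 1 BC that BC would have an enrichment of 63.7. In the other replicates E5 had fewer than 3 BCs and no value.

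Over all constructs with a value, the 16 fragments averaged -4.05 ± 0.86 (SD, n = 16) and the 8 promoters -2.40 ± 1.98 (SD, n = 8). The difference of 1.65 had p = 0.0154 in an exact two-sided permutation test. By mean, only 2 of the 8 promoters, Actb and Psmd4, lay above every fragment in this set, as E5 exceeded the others with its value from 1 replicate. Inactive were 14 of the 16 fragments, beside 68% of all 25 constructs with a value. Without E5, left out after the data were seen as the fragment of highest activity, the difference was 1.86. Leaving out the highest fragment can only raise the difference, so it adds no support. Spearman's rho of activity with OE was -0.068 over the 16 fragments, with no more relation than in the 8 that passed.

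How firmly inactivity was measured depended on BCs. The pool had 381, 509 and 159 BCs in replicates 1, 2 and 3, of which 122, 140 and 51 belonged to fragments, spread over 66, 69 and 37 of them. The values of fragments rested on 58, 65 and 12 BCs. Of the 27 fragment values, 18 had no RNA read at all (66.7%, within 1e-09 of the pseudocount). The same held for 2 of the 21 promoter values (9.52%) and 0 of the 3 CMV values. A value from more BCs has more chances of an RNA read, so these shares also depend on BC number. With the limit for inactive applied to single values, the contrast was smaller. Inactive were 24 of the 27 fragment values (88.9%) and 8 of the 21 promoter values (38.1%). The 18 values rested on 79 of the 135 BCs behind fragment values, each with more than 20 DNA reads, and the 21 promoter values rested on 385 BCs. These are sums over the 3 replicates, so a BC present in more than 1 replicate is counted each time, and they are not numbers of separate BCs. A limit can be set by taking 3 expected reads as the bound for a count of 0, and 20 DNA reads, the minimum, for each BC. The bound of 3 is a statistical convention and not an absolute maximum. A single value without RNA from 3 BCs then allows an RNA over DNA ratio of up to 0.05, the pseudocount itself. For E9 in replicate 1, with 16 BCs, the limit was 0.00938. Both limits take the fewest DNA reads possible, and BCs with more DNA reads would have lower ones. The DNA reads of each BC were not used here, so whether such a fragment differs from a weak promoter was not tested. These limits cover counting error only.

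**Figure D4:**
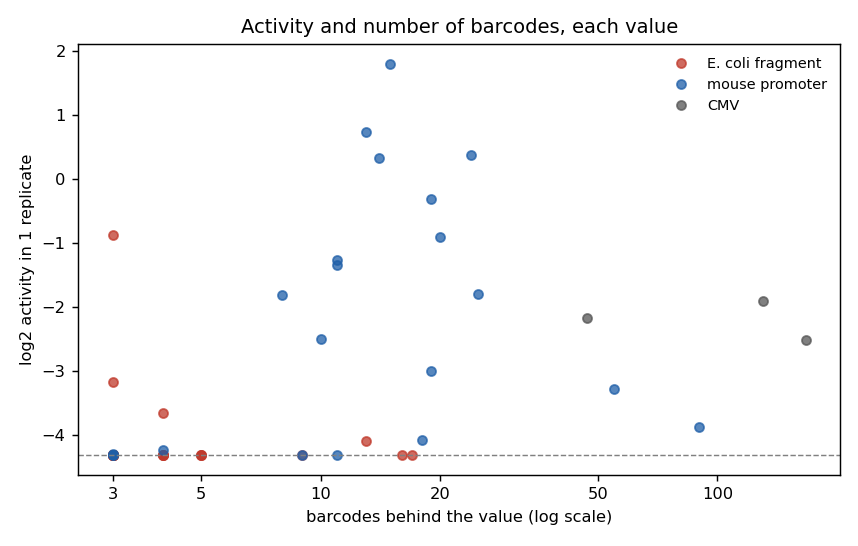
Log2 activity of each construct in each replicate (y axis) against the number of BCs behind the value (x axis, log scale) for fragments (red), promoters (blue) and CMV (grey). Fragments above the dashed line of -4.32 have 3 to 13 BCs, and the value of the fragment with the most BCs, 17, lies on the line.

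The housekeeping promoters were also measured without fragments, in a pool of their own, and in a pool with mutants of the Snx3 promoter. As activities are scaled within a pool, levels were set side by side and not tested. All 8 promoters were higher in the housekeeping pool than beside the fragments, by 0.46 to 2.15 and by 1.01 on average. CMV was higher there as well, with -0.86, -1.61 and -2.59 and a mean of -1.69 against -2.20. Kdelr1 measured -1.98, -3.54 and -3.87 there and Tpp1 -1.63, -3.51 and -4.08, with 16 to 38 and 11 to 24 BCs. Their means of -3.13 and -3.07 left the lowest value, but both values of replicate 3 lay within 0.5 of it. PGK measured -3.38 and -3.19 from 4 and 5 BCs. Snx3 averaged -0.01 ± 1.06 (SD, n = 3) there against -2.16 beside the fragments.

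In the pool with Snx3 mutants, 6 of the 8 promoters were higher than beside the fragments. Kdelr1 stood at -4.32 in all 3 replicates of that pool from 9 to 11 BCs, and PGK was at -4.32 and -3.38 from 3 BCs each. Snx3 averaged -0.15 ± 0.77 (SD, n = 3). In each of the 3 pools Actb was the highest of these promoters, and Polr2g, Kdelr1, PGK and Tpp1 were the lower 4 of the 8. Gpi1 had a value only in the housekeeping pool, with -1.82, -3.07 and -4.32 from 4, 3 and 7 BCs. Fragments were measured in 1 pool, so the same comparison cannot be made for them.

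**Figure D5:**
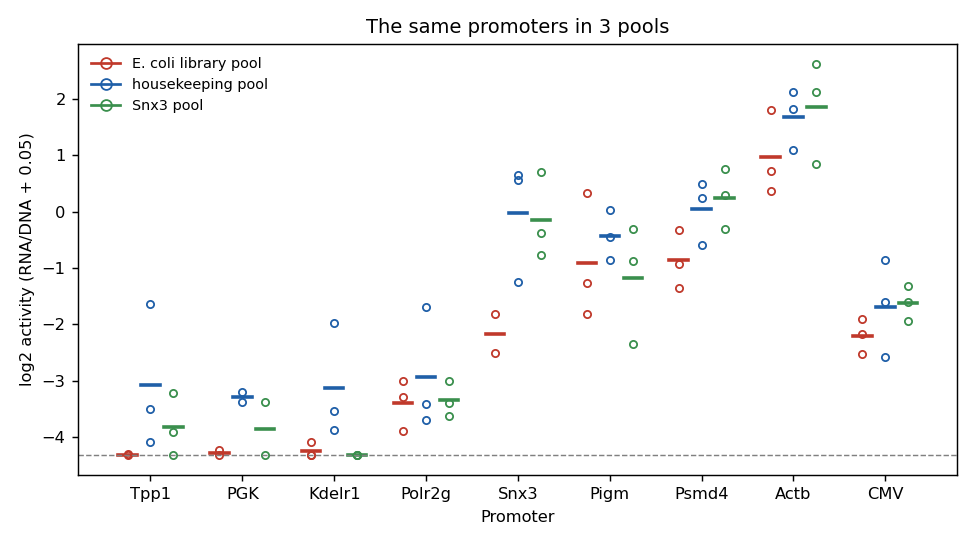
Log2 activity (y axis) of 8 mouse promoters and CMV (x axis) in the pool with E. coli fragments (red), the housekeeping pool (blue) and the pool with Snx3 mutants (green), with circles for replicates, bars for means and the lowest value of -4.32 dashed. Tpp1, PGK and Kdelr1 lie at or near the line in red and above it in blue, and Actb is highest in every pool.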

How the data were processed

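TrAC-seq activities of the pool with E. coli fragments were analysed for wild-type TC-1 ESCs in 3 replicates, 6 of the 186 samples listed (RNA and DNA of each). The authors assigned BCs to inserts by alignment, using a much shorter stretch of the read for E. coli inserts than for the housekeeping library, brought the RNA and DNA counts of each replicate to the lower of both totals, and used BCs that had over 20 DNA reads. The deposited activity is a ratio, the geometric mean over the BCs of RNA over DNA plus 0.05. The authors also deposited G+C content as a percent, CpGs per 100 bases and OE. An activity is listed only where at least 3 BCs were counted, which was checked in the file. Bowtie and mm9 are named in the submitters' processing notes. The sources used here give no version.

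Activities were converted to log2 and averaged over the replicates with a value. Constructs with a value in 2 or more replicates (3 or more BCs each) were compared, and beside them all constructs with a value. Exact permutation tests over constructs (Python 3.11.15, scipy 1.17.1, numpy 2.4.6, pandas 2.3.3, matplotlib 3.10.9) were two-sided and used a threshold of 0.05. They were also run on simulated data. The simulated data without a difference had the spread of the promoters in both classes. The error rate at the unequal spread of the real classes was therefore not tested. The p-values measure the spread between constructs, not between cultures. Insert lengths of promoters were solved from the deposited composition up to 1000 bases. The same solution gave the true length among its answers for 73 of 73 fragments and was unique for 68. Sequences are RefSeq windows on GRCm38.p6, and gene positions are from GENCODE on mm9. Read totals are unknown, so the precision is known only through BCs.

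By rule, all constructs that passed the limit are named, with the 3 highest and 3 lowest of those that did not. The last rule has ties at the lowest value, so all fragments with a value are named. Length was not compared between classes, since it was not unique for 2 promoters. The members, lists and tests were chosen with earlier results of these data known. Alternatives were the BC minimum, replicates left out, a fit of construct and replicate, weights by BCs, the promoters and scale used, and, added after the data were seen, loci in place of fragments, G+C matching and the fragment E5 left out. The number of columns of unknown samples was 0. Of the other libraries, only the housekeeping pool and the pool with Snx3 mutants were used, for the levels of the same promoters.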

Additional observations from a re-analysis of the deposited data

Results flagged for a closer look

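The G+C content of E4, 35.7%, lay far from the other 7 fragments that passed, of which the next lowest was E16 with 47.9%. The gap was 0.621 of the whole range, above the Dixon limit for 8 values. Log2 activity, G+C content, CpGs per 100 bases and OE were each searched in this way, in passed fragments and in passed promoters. No other value was above the limit. Chance alone flags about 1 in 20 such groups. E4 also had the lowest number of CpGs per 100 bases, 2.69, and stood at the lowest activity in both of its replicates.

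E5, which did not pass the limit on replicates, had a log2 activity of -0.88 in replicate 1 from 3 BCs, above CMV in the same replicate (-1.91). The value was not repeated in another replicate.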

How the results depend on the processing

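The difference between promoters and fragments that passed kept its direction in all 17 alternative settings and its side of the threshold in 15. With at least 5 BCs in 2 replicates it was 2.50 with p = 0.0714 (6 promoters and 2 fragments, exact permutation test), and with at least 10 BCs it was 2.64 with p = 0.333 (5 promoters and 1 fragment). Both are the smallest p these numbers allow. Leaving out a replicate gave 1.56 to 2.00. The fit with replicate as a block gave 1.81 with exact permutation p = 0.0151 and changed no call. Without Actb the difference was 1.32, and with loci in place of fragments 1.79. Over all constructs with a value, the 7 alternatives gave 1.54 to 1.86, all past the threshold, and leaving out a replicate gave 1.61 to 1.74. The 1.86 is the setting without E5, which was chosen by its high value. For the mean of the differences within replicates, leaving 1 out gave 1.84 to 2.34. Spearman's rho of activity with OE within promoters was 0 without inactive constructs, against 0.57 with them. Of the 8 passed fragments, 6 were inactive at a distance of 0.25 from the lowest value and 8 at a distance of 1, against 7 at 0.5. Of the 8 passed promoters, 3 were inactive at 0.25, 4 at 1 and 3 at 0.5, so the widest limit also takes in 1 more promoter, Polr2g. Minimums of 1 and 2 BCs, and keeping replicates below the minimum, were not run, since values under 3 BCs were not used here.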
